A study of Rattus norvegicus with 82 samples.

Results

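Cardiomyocytes of the right ventricle (RV) and of the left ventricle (LV) were compared within the same 6 rat hearts after pulmonary artery banding, at the stage of compensated hypertrophy (PAB-H). All samples with the token PAB-H in their title were taken, which gave 12 of the 82 libraries of the series, 6 from the RV and 6 from the LV, and each RV was paired with the LV that carries the same animal number. The animals were F1 rats from a female Wistar Kyoto and a male Lewis parent. Replicates 1 to 4 were male and replicates 5 and 6 female. A clip around the pulmonary artery loads the RV and leaves the LV as the indirectly affected chamber. The sample labels give an age of 11 weeks and a treatment time of 7 weeks for all groups used here, whereas other statements of the study give different ages, so the age is not settled. The same contrast was set beside 7 sham-operated animals (Sham-H, 3 male, 4 female) and 6 animals with a band around the aorta, which loads the LV (AOB-H, 2 male, 4 female), of the same strain, labelled age and treatment time. Each library is total RNA, depleted of ribosomal RNA, from cells freed by collagenase perfusion and enriched for cardiomyocytes by sieving and centrifugation, so that other cell types can remain.

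RV and LV arise from different progenitor fields of the embryonic heart and carry different loads after birth. The RV is the thin-walled pump of the low-pressure pulmonary circuit, and the LV that of the high-pressure systemic circuit. Ventricles under load re-express genes of the fetal heart, among them the natriuretic peptides Nppa and Nppb and skeletal alpha-actin, Acta1, and the matrix and the immune cells around the myocytes also respond. The comparison asks which RV to LV differences are present when the RV is the loaded chamber, with each heart as its own control.

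The 12 libraries held 11445900 to 15746717 counts. A normalized read count is here the raw count divided by the effective size of its library and multiplied by the mean effective size of all 38 libraries of the compensated stage. A gene was called when the Benjamini-Hochberg adjusted p of edgeR's quasi-likelihood test was under 0.05, in 1 fit over the 38 libraries with the animal as a block. The heart of replicate 2 stood apart: 29.6% of its genes differed more than 2-fold between RV and LV, against 4.18% to 9.45% in the other 5 hearts, and its summed ventricular cardiomyocyte markers were the lowest in both chambers. Results are therefore also given without replicate 2. In Sham-H the hearts of replicates 4 and 5 also stood apart, with 36.5% and 23.2% of genes over 2-fold, against 5.41% to 9.92% in the other 5, and with the highest summed fibroblast markers (32000 and 22520) and endothelial markers (48900 and 33690) in their LVs. In AOB-H replicate 6 had 17.6% of genes over 2-fold, against 6.37% to 10.2%. The summed fibroblast markers of the RV were highest in replicates 1 and 2 (36370 and 62750), against 9649 to 13930 in the other 4 RVs and 7163 to 24040 in the LVs.

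RV and LV differed in 169 of 11511 genes tested (1.47%), of which 96 were higher in the RV (0.834%) and 73 lower (0.634%). The homeobox gene Irx1, a transcription factor, was lowest relative to LV, 22.1-fold, and Ptgs2 and Spp1, an enzyme and a secreted protein of the injury response, were highest among the genes of sufficient level, 6.34-fold and 6.81-fold. Of the 169 genes, 144 moved the same way in all 6 animals, as did 1141 of all genes tested (9.91%). The 6 RV values lay wholly above the 6 LV values in 20 called genes and wholly below in 8, while 90 of all genes tested had separate ranges (0.782%). The change was under 2-fold in 102 of the 169. By the criteria of the study, a change above 2-fold with p of at most 0.01 and a mean count above 50, 71 genes passed (0.617%), 65 of them higher in the RV and 6 lower. Without replicate 2, 89 genes were called, and 65 of the 169 were among them, 35 higher and 30 lower. The count was 93 without replicate 1, 43 without replicate 3, 58 without replicate 4, 264 without Sham-H replicate 4 and 352 without Sham-H replicates 4 and 5 together. In all 6 fits that left out 1 PAB-H animal, 32 of the 169 were called, 20 higher and 12 lower. Without the animal block 24 genes were called, 20 higher and 4 lower, and on the 12 PAB-H libraries alone, with the block, 18 were called, 9 in each direction.

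**Figure D1:**
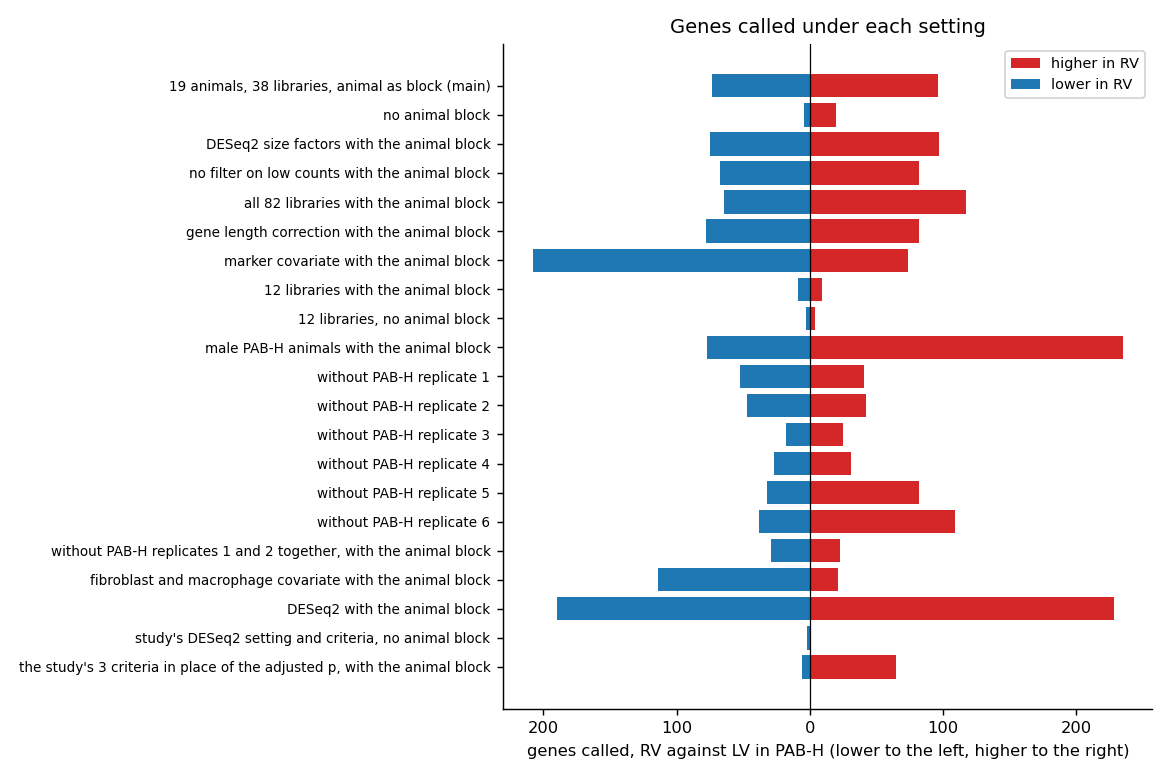
Number of genes called for RV against LV in PAB-H under the settings that leave out no Sham-H or AOB-H animal. Genes lower in the RV are to the left and higher to the right, both counted from 0. Bars named for the study's criteria count genes by its fold, p and count limits in place of the adjusted p. The count falls from 169 with the animal as a block to 24 without it, stands at 89 without replicate 2, and is 418 when DESeq2 is used with the same block.

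The genes that separate the chambers most were transcription factors that were lower in the RV. Irx1 had RV counts from 0.970 to 6.06 (median 3.20) and LV counts from 36.9 to 98.1 (median 75.8). All 6 RVs lay below all 6 LVs, and the log2 fold change was -4.47 (SE 0.48, adjusted p = 7.67e-05). Its neighbour Irx2, a related homeobox factor, had RV counts from 1.03 to 25.5 (median 9.29) and LV counts from 80.7 to 192 (median 129.8), again without overlap, with a log2 fold change of -3.39 (SE 0.42, adjusted p = 2.98e-04). Both genes were also lower in the RV of every Sham-H and AOB-H animal, with log2 fold changes of -3.74 and -3.87 in Sham-H. In each of the 19 hearts both genes were thus lower in the library labelled RV. The difference between PAB-H and Sham-H did not pass for Irx1 (-0.73, SE 0.72, adjusted p = 0.655) or Irx2 (0.48, SE 0.61, adjusted p = 0.732).

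Of the list of 25 tested chamber and core cardiac transcription factors, 3 were lower in the RV, Irx1, Irx2 and Tbx3, and none higher, and the list's median log2 fold change was -0.10 beside 0.04 over all genes tested. Tbx3, a repressor that marks the conduction system, had RV counts from 131 to 273 and LV counts from 233 to 381, and its log2 fold change was -0.71 (SE 0.15, adjusted p = 0.0233). Its call was lost without replicate 3, 4 or 6, with an adjusted p of at most 0.0846, and kept without replicate 2. In Sham-H 12 of the 25 were called, 7 higher and 5 lower, beside 16.5% of all genes tested called higher and 15.1% lower. Irx3, Tbx5 and Hand2, further factors of ventricular identity, were not called, with log2 fold changes of -0.22, -0.33 and -0.10. Hand1 was too low to be tested, at 0 to 6.08 in the RV and 1.99 to 9.43 in the LV.

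The stretches before the start of the genes that carry the chamber difference (Irx1, Irx2), the load response (Nppb) and inflammatory genes described further on (Ptgs2, Il1b) are printed from RefSeq on the rat assembly GRCr8, whereas the study counted on an older assembly, Rnor6.0. Each holds 250 bases before and 50 after the annotated start, 5′ to 3′ on the strand of the gene. Capitals mark matches on either strand to 6 motifs, searched separately also where they overlap: for M-CAT the letters CATTCC, for GATA factors the letters AGATAA, for the E-box the letters CAGCTG, for NKX2-5 the letters AAGTGG, for AP-1 the letters TGACTCA and for the TATA box the letters TATAAA.
Irx1 (chr1:33122872-33123171, + strand): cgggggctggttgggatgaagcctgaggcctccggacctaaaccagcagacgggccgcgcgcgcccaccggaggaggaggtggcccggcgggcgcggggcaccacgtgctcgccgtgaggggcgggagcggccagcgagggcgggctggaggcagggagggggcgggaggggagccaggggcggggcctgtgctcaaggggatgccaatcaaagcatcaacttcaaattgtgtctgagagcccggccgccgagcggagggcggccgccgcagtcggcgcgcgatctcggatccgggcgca
Irx2 (chr1:32494881-32495180, - strand): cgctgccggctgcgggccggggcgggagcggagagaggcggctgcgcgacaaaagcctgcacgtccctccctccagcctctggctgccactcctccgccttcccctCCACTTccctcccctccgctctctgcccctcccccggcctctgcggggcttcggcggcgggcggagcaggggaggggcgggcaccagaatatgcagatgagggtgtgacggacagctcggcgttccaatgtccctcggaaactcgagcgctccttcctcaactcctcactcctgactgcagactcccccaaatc
Nppb (chr5:163699758-163700057, + strand): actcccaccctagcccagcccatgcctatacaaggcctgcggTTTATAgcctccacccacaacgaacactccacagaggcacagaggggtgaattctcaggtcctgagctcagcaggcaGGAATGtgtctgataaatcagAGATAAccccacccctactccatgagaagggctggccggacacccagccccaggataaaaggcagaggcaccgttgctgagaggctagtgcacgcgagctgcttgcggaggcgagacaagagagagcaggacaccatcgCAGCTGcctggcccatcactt
Ptgs2 (chr13:64713813-64714112, + strand): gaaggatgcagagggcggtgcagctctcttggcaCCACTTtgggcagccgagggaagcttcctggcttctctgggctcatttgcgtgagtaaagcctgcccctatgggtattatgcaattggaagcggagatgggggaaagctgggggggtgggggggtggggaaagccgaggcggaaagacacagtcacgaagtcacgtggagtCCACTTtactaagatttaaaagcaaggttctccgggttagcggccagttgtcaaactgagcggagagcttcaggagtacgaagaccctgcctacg
Il1b (chr3:137036532-137036831, - strand): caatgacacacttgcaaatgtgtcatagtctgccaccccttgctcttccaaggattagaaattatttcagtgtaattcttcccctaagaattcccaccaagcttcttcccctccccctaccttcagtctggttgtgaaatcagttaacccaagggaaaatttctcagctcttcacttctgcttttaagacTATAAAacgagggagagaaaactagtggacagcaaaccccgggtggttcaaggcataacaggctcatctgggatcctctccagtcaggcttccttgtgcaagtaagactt

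A promoter sequence was found for 9350 of the tested genes, for 81 of the 96 higher in the RV and for 52 of the 73 lower. The AP-1 letters were in 9.88% of the promoters of the higher genes, 1.92% of those of the lower genes and 3.39% of all. The M-CAT letters were in 16%, 9.62% and 11.1% of the same sets, the GATA letters in 11.1%, 9.62% and 6.14%, and the TATA box letters in 12.3%, 9.62% and 6.91%. The E-box letters were in 17.3%, 17.3% and 16.3%, and the NKX2-5 letters in 14.8%, 17.3% and 15.8%. These shares are a description of letters in a window and were not tested.

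Nppb, Nppa, Acta1 and Penk, genes of the load response, had log2 fold changes nearer 0 in PAB-H than in Sham-H, but the tests of the difference from Sham-H did not pass. Nppb, the B-type natriuretic peptide, had RV counts from 2130 to 5475 (median 3936) and LV counts from 4702 to 9973 (median 7479). The RV was lower in all 6 animals, although the ranges overlapped, and the log2 fold change was -0.92 (SE 0.22, adjusted p = 0.041). The call was lost without replicate 1, 2, 4 or 5, at adjusted p values of 0.127, 0.129, 0.0952 and 0.0569. In Sham-H the log2 fold change of Nppb was -2.02 (SE 0.21, adjusted p = 1.4e-06), and the difference between the 2 contrasts was 1.10 (SE 0.30) without passing (adjusted p = 0.0978).

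Nppa, the A-type natriuretic peptide, had RV counts from 1846 to 5327 (median 2911) and LV counts from 1765 to 9956 (median 3285) in PAB-H. The ranges overlapped almost fully, the RV was higher in 2 of 6 animals, and the log2 fold change was -0.28 (SE 0.35, adjusted p = 0.648), turning to 0.063 without replicate 1. In the RV of Sham-H it lay between 138 and 432, below every one of the PAB-H RVs, and in the LV between 772 and 3856. The log2 fold change was -2.44 in Sham-H and -2.95 in AOB-H, lower in the RV in all 13 of these animals, and the difference of the contrast in PAB-H was 2.17 (SE 0.49, adjusted p = 0.0697) from Sham-H and 2.67 (adjusted p = 0.0235) from AOB-H. Acta1 had RV counts from 6120 to 29130 (median 22310) and LV counts from 8401 to 21940 (median 15540). The RV was higher in 5 of 6 PAB-H animals and lower in all 13 others. Its log2 fold change was 0.47 (SE 0.28, adjusted p = 0.367) in PAB-H and -1.26 (SE 0.25) in Sham-H, and the difference was 1.74 (SE 0.37, adjusted p = 0.0697). Against AOB-H the difference of Acta1 was 1.62 (adjusted p = 0.0317).

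Penk, which encodes the precursor of the enkephalin peptides, had RV counts from 259 to 2000 (median 914) and LV counts from 1664 to 3164 (median 2234) in PAB-H. The RV was lower in all 6 animals, at a log2 fold change of -1.26 (SE 0.37) that did not pass (adjusted p = 0.0981), beside -3.00 (SE 0.36, adjusted p = 6.08e-06) in Sham-H. The difference of 1.74 (SE 0.51) did not pass either (adjusted p = 0.112). The heart of replicate 1 was the exception in this group of genes: its log2 RV minus LV value was -2.14 for Nppa, -1.84 for Acta1, -0.99 for Myh7 and -3.60 for Penk, each the lowest of the 6. Without replicate 1 Acta1 was called higher in the RV (adjusted p = 0.0243). Myh7, the slow myosin heavy chain, and Ankrd1, a stretch-responsive nuclear protein, were each higher in the RV of 5 of 6 PAB-H animals, with log2 fold changes of 0.23 (adjusted p = 0.44) and 0.44 (adjusted p = 0.313). Over the list of 21 tested natriuretic peptides and fetal load-response genes, Nppb alone was called, and the median was 0.19 in PAB-H and -0.23 in Sham-H. In Sham-H 7 of them were lower and 1 higher, beside 15.1% and 16.5% of all genes tested. Tceal7 was not called, at a log2 fold change of 0.48 (adjusted p = 0.525), and Hs3st2 was too low to be tested, at 0 to 8.73 in the RV and 0 to 6.18 in the LV.

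**Figure D2:**
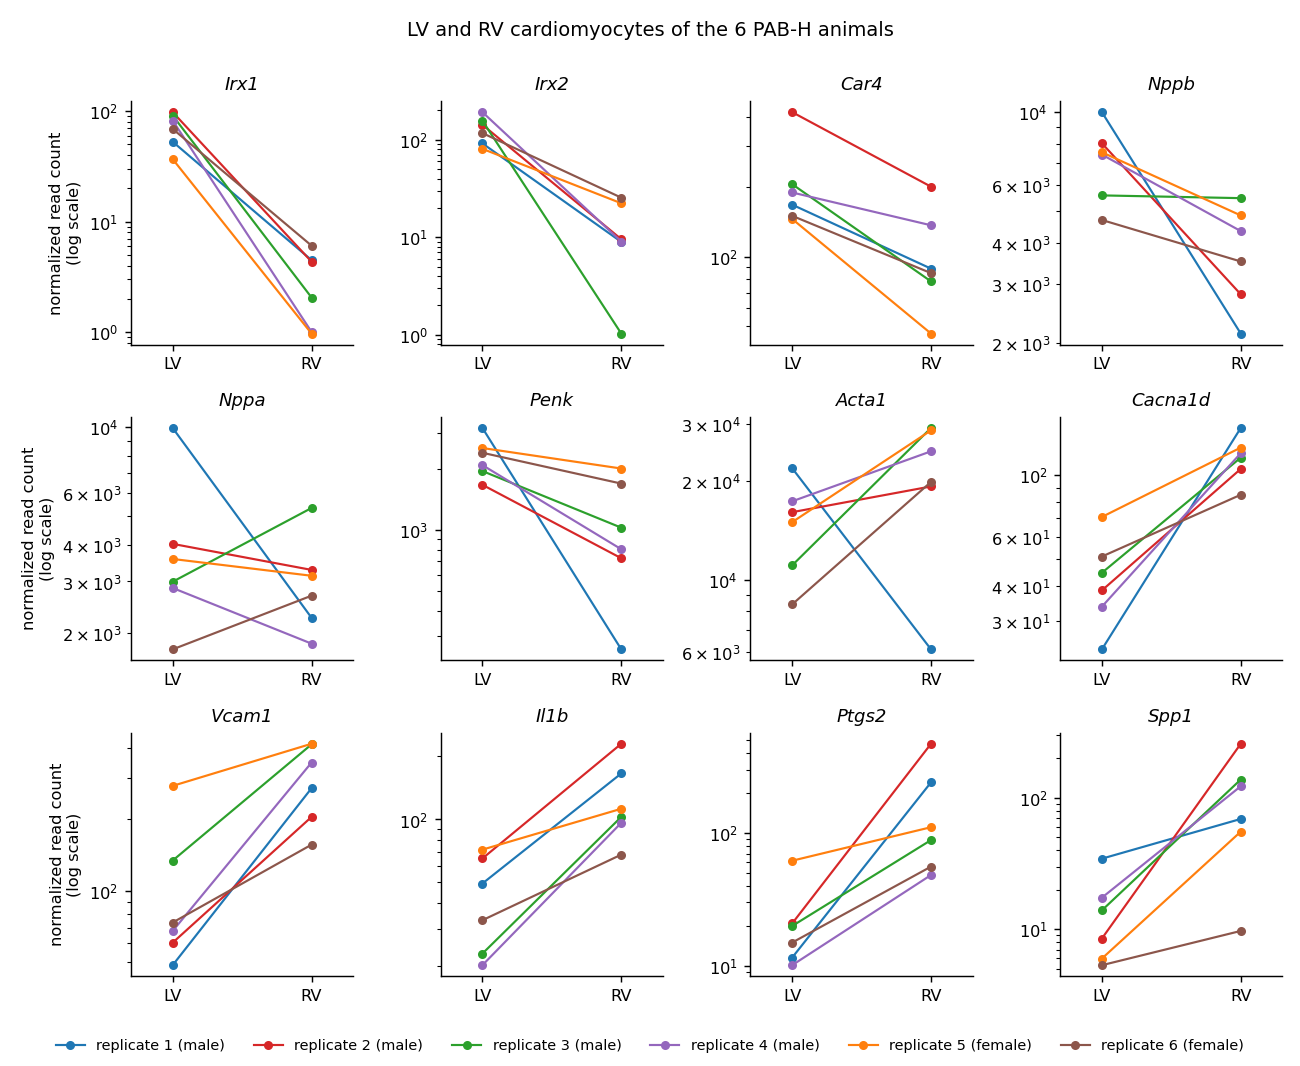
Normalized read counts on a log scale of 12 genes in the LV and RV of each PAB-H animal, with lines joining the chambers of 1 heart. Irx1 and Irx2 fall in every animal without overlap, Nppa runs in both directions, Acta1 is lower in the RV in replicate 1 and higher in the other 5 hearts, and Ptgs2, Il1b and Vcam1 are higher in the RV of all 6.

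Ptgs2, the inducible cyclooxygenase, had RV counts from 48.2 to 471 (median 99.5) and LV counts from 10.1 to 61.8 (median 17.4). It was higher in the RV of all 6 animals, at a log2 fold change of 2.66 (SE 0.43, adjusted p = 0.00368), and without replicate 2 at 2.23 (adjusted p = 0.0141). Il1b, the cytokine interleukin 1 beta, had RV counts from 67.9 to 230 (median 107.7) and LV counts from 20.1 to 71.7 (median 41.2). Only the lowest RV, that of replicate 6, lay within the LV range, and the log2 fold change was 1.59 (SE 0.27, adjusted p = 0.005). Vcam1, an adhesion molecule for leukocytes, had RV counts from 156.5 to 417 and LV counts from 48.5 to 277, the LV of replicate 5 being far above the other LVs, and a log2 fold change of 1.63 (SE 0.23, adjusted p = 9.01e-04). These 3 genes were called in each fit that left out 1 animal, as were Cd83, a marker of activated antigen-presenting cells (1.46, SE 0.27), and Nlrp3, the sensor of an inflammasome (1.38, SE 0.26).

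Spp1, which encodes the secreted matrix protein osteopontin, had the largest increase in the RV among the genes named by size. Its RV counts were 9.70 to 258 (median 95.8) and its LV counts 5.32 to 34.4 (median 11.2). The RV was higher in all 6 animals, by 0.98 in replicate 1, 0.76 in replicate 6 and 2.75 to 4.77 in the other 4 on the log2 scale, and the log2 fold change was 2.77 (SE 0.57, adjusted p = 0.0199). Without replicate 2 it was 2.31 (adjusted p = 0.0609), and the call was also lost without replicate 3 (0.0789) or 4 (0.0721). Has1, a hyaluronan synthase, stood at 1.63 (SE 0.33, adjusted p = 0.0199) and kept its call without replicate 2, but not without replicate 1, 3 or 4 (adjusted p of at most 0.0825). Cyp1b1, a cytochrome P450 enzyme, stood at 1.39 (SE 0.27) and lost its call without replicate 1 (adjusted p = 0.0546).

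Ltbp2, a binding protein of the extracellular matrix, rested on 1 heart to a large extent. Its RV count was 1340 in replicate 2 and 31.5 to 229 in the other 5, beside 24.5 to 89.6 in the LVs. The log2 fold change was 1.46 (SE 0.35, adjusted p = 0.041) and 0.92 without replicate 2 (adjusted p = 0.0939), and the adjusted p was 0.129, 0.0747 and 0.0868 without replicates 1, 3 and 4. Adgre1, the macrophage surface receptor F4/80, stood at 1.46 (SE 0.32, adjusted p = 0.028) and at 1.08 without replicate 2 (adjusted p = 0.0807), and its call was also lost without replicate 1 (0.0905) or 3 (0.0513). Ccl7, a chemokine for monocytes, stood at 1.40 (SE 0.30, adjusted p = 0.0237) and lost its call without replicate 1, 2, 3 or 4 (0.0514 to 0.0774).

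Further called genes of the same kind, grouped only after their values were seen, were Il1a, Il1rn, Cxcl1, Cxcl2, Tlr2, Nfkbiz, Tifa, Tnfaip6, Icam1, Icam4, Icam5 and Selp, cytokines and their antagonist, chemokines, receptors, regulators and adhesion molecules. Their log2 fold changes in PAB-H ranged from 0.65 (Nfkbiz) to 2.77 (Icam5). Without replicate 2 Il1a, Icam1 and Icam5 kept their calls. The others lost them, at adjusted p values from 0.0545 (Icam4) to 0.172 (Tlr2). Of the 6 fits that left out 1 PAB-H animal, Icam5 was called in all, Il1a in 5 and each of the others in 0 to 2. In Sham-H the contrast of Il1b was 0.50 (SE 0.25, adjusted p = 0.125) and that of Ptgs2 0.87 (SE 0.39, adjusted p = 0.0875), and the differences from PAB-H, 1.09 and 1.80, did not pass (adjusted p = 0.147 and 0.131). Il1a (1.27), Icam4 (1.53), Icam5 (1.77), Selp (0.97), Tifa (0.79), Ccl7 (1.15) and Nlrp3 (0.69) were also called higher in the RV of Sham-H, whereas Il1rn, Cxcl1, Cxcl2, Tlr2, Nfkbiz, Tnfaip6, Icam1, Cd83 and Adgre1 were not called there, at 0.08 (Adgre1) to 0.52 (Icam1), and none of these 16 genes passed the direct test of the difference from Sham-H. Vcam1 had a log2 fold change of 1.49 (SE 0.21) in Sham-H and of 1.38 in AOB-H. The group picked after the values were seen holds only genes higher in the RV. Nos2 (-0.79), Apol3 (-0.75), Cish (-0.72) and Pdcd1lg2 (-0.53), also known from immune responses, were called lower in the RV of PAB-H. Without replicate 2 only Pdcd1lg2 of these kept its call (adjusted p = 0.0418).

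Markers of macrophages also tended to be higher in the RV, and their relation to these genes across animals was not tested. All 10 macrophage markers had a positive log2 fold change in PAB-H, with a median of 0.82, and 1, Adgre1, was called. Their summed count was higher in the RV in replicates 1 to 5, and in replicate 6 it was 602 in the RV and 636 in the LV. The range was 602 to 2543 in the RVs (median 1154) and 432 to 942 in the LVs (median 755). Without replicate 2 the median of the markers was 0.59, and without replicates 1 and 2 it was 0.38. All 9 tested fibroblast markers also had a positive log2 fold change, with a median of 0.81. Of them 0 were called by edgeR, 1 was called by DESeq2 and 6 had an unadjusted p under 0.05, as had 2023 of all 11511 genes tested. The fibroblast median fell to 0.55 without replicate 2 and to 0.13 without replicates 1 and 2. The defining fibroblast marker Col1a2 was at 0 in 11 of 12 libraries with 1 read in all, whereas Col1a1 and Col3a1 had reads in every library. Of the 6 neutrophil markers none passed the filter, and their sum was at most 6.02 per library. In bulk RNA, more cells of a type and more RNA per cell cannot be told apart.

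The mean log level of 19 fibroblast and macrophage markers was used as a covariate, an alternative added after the data were seen. With it 21 genes were higher in the RV and 114 lower, and 60 of the 169 were among them, 14 higher and 46 lower. Ptgs2 stood at 1.52 (adjusted p = 0.0481) and Vcam1 at 1.21 (adjusted p = 0.0258) in that fit, while Il1b at 1.27 (adjusted p = 0.0715), Adgre1 at 0.76 (adjusted p = 0.415) and Ltbp2 at 0.45 (adjusted p = 0.706) were no longer called. Irx1 stood at -4.16 (adjusted p = 0.00764). With the other covariate, the mean level of 30 endothelial, mural and macrophage markers, 282 genes were called, 74 higher and 208 lower, and 127 of the 169 were among them, 61 higher and 66 lower. There Ptgs2 stood at 2.10 (adjusted p = 9.93e-04), Il1b at 1.42 (adjusted p = 0.0077) and Adgre1 at 1.17 (adjusted p = 0.042), each called, and Ltbp2 at 0.94 (adjusted p = 0.0746). Adgre1 is itself a macrophage marker in both covariates, so that its smaller values in these fits are partly built in.

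**Figure D3:**
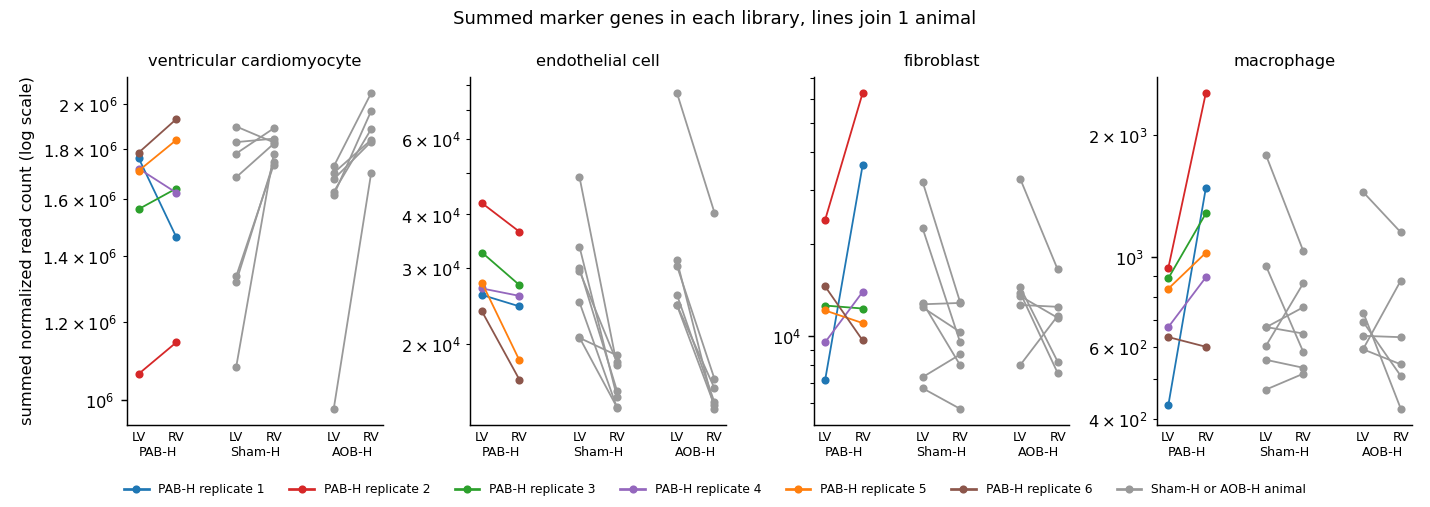
Summed normalized read counts, on a log scale, of the markers of 4 cell types in each library, with lines joining LV and RV of 1 heart. In PAB-H replicate 2 is lowest for cardiomyocytes and highest for the other 3 types, endothelial markers are lower in the RV of all 6 hearts, and fibroblast markers are highest in the RVs of replicates 1 and 2.

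The extracellular matrix list had the highest median of the 19 gene programmes, 0.69 in PAB-H, with a positive log2 fold change in 39 of 44 tested genes. In Sham-H the median was -0.39, with 9 of 44 positive and 13 called lower in the RV, beside 15.1% of all genes tested. In PAB-H 3 members were called, all higher in the RV: Timp1, an inhibitor of matrix proteases (1.46, SE 0.33), Thbs1, a matricellular glycoprotein (1.09, SE 0.27), and Ltbp2. None of the 44 was called by edgeR without replicate 2, when the median was 0.47 (Timp1 adjusted p = 0.0847, Thbs1 adjusted p = 0.119), and without replicates 1 and 2 together it was 0.15. Timp1 and Thbs1 also lost their calls without replicate 1, 3 or 4, at adjusted p values up to 0.133. With DESeq2 and the same block 11 were called higher and 2 lower. In PAB-H the summed fibroblast markers were highest in the RVs of replicates 1 and 2. In Sham-H replicates 4 and 5 they were 32000 and 22520 in the LV and 12880 and 9508 in the RV. Without these 2 Sham-H animals the Sham-H median of the list was -0.20, with 4 called lower.

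Of 57 tested secreted signals and patterning factors 3 were called, all higher in the RV: Wisp2, a matricellular protein (2.11, SE 0.49), Il1b, and Slit3, a guidance molecule (0.97, SE 0.20). The median was 0.27, and 0.19 without replicate 2, when Il1b and Slit3 kept their calls and Wisp2 did not (adjusted p = 0.134). Slit3 was not called without replicate 1, 3 or 4, at adjusted p values of 0.0579, 0.0677 and 0.0565. In Sham-H 10 of these genes were higher in the RV and 12 lower, beside 16.5% and 15.1% of all genes tested.

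Of the myocyte lists, 0 of 30 sarcomere, 1 of 30 calcium-handling and 2 of 37 ion channel genes were called, beside 1.47% of all genes. None of 30 sarcomere genes was called in PAB-H by edgeR or DESeq2, at a median of 0.06. In Sham-H, where 16.5% of all genes tested were called higher in the RV and 15.1% lower, 6 sarcomere genes were higher and 2 lower. In PAB-H 3 of the 30 had an unadjusted p under 0.05, beside 2023 of all 11511 genes tested. Of 30 calcium-handling genes, Itpr1, a calcium release channel activated by inositol trisphosphate, was called, with RV counts from 2325 to 3527 and LV counts from 1712 to 2407 (0.47, SE 0.10, adjusted p = 0.0262, and 0.0672 without replicate 2). In Sham-H 11 calcium-handling genes were higher in the RV and 2 lower. Of 37 ion channels 2 were called, both higher in the RV, the potassium channel Kcna2 (0.56, SE 0.13) and the T-type calcium channel Cacna1g (0.46, SE 0.11). Both kept their calls without replicate 2, at adjusted p values of 0.0418 and 0.0446, and lost them without replicate 1, 3, 4 or 5, at adjusted p values up to 0.165. Without replicate 6 Kcna2 also lost its call (adjusted p = 0.0918), whereas Cacna1g kept it (adjusted p = 0.0358). In Sham-H 11 ion channels were higher in the RV and 6 lower. Cacna1d, a subunit of an L-type calcium channel that is named for the size of its change, had RV counts from 84.9 to 147 and LV counts from 23.8 to 70.7. The ranges did not overlap, and the log2 fold change was 1.45 (SE 0.24, adjusted p = 0.00422), beside 1.80 (SE 0.22) in Sham-H and 1.55 in AOB-H.

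Among the metabolic lists, 2 of 45 fatty acid genes were called, Acsl6, an acyl-CoA synthetase, higher (0.43, SE 0.11) and Fabp4, a fatty acid binding protein of endothelial cells and adipocytes, lower (-0.69, SE 0.16). Neither call held without replicate 2 (adjusted p = 0.157 and 0.0833). In Sham-H 14 fatty acid genes were higher in the RV and 2 lower, beside 16.5% and 15.1% of all genes tested. None of 37 genes of glucose uptake and glycolysis, 75 subunits of oxidative phosphorylation or 80 cytosolic ribosomal proteins was called in PAB-H by edgeR. At an unadjusted p under 0.05 were 13, 32 and 26 of them, beside 2023 of all 11511 genes tested. DESeq2 with the same block called 1 glycolysis gene, 2 oxidative phosphorylation subunits and 0 ribosomal proteins. The oxidative phosphorylation list had a median of -0.29 in PAB-H, with 10 of 75 genes positive, and -0.12 without replicate 2, beside -0.03 in Sham-H and 0.24 in AOB-H. The ribosomal protein list had a median of -0.24, and -0.11 without replicate 2. Of 31 interferon-stimulated genes 0 were called in PAB-H by edgeR and 1 by DESeq2, with 10 at an unadjusted p under 0.05 and a median of -0.26. Of the same genes 19 were lower in the RV of Sham-H and 22 in that of AOB-H, at medians of -0.53 and -0.84. The shares of all genes tested that were lower were 15.1% in Sham-H and 10.2% in AOB-H.

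No member was called by edgeR in the lists of intercalated disc and gap junction genes (19 tested), adrenergic, muscarinic and cyclic nucleotide signaling (39), hypoxia and angiogenic response (22), immediate early genes (28), heat shock and integrated stress response (33), circadian clock (15) and cell cycle (31). At an unadjusted p under 0.05 there were 2, 8, 3, 7, 4, 1 and 4 of them in this order, beside 2023 of all 11511 genes tested. DESeq2 called 1 immediate early gene and no other member of these lists. Their medians lay between -0.11 and 0.10.

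The Sham-H counts of the lists fell without Sham-H replicates 4 and 5, an alternative added after the data were seen. Over all 11527 genes tested in that fit, 183 were called higher in the RV of Sham-H and 565 lower. The members called higher and lower in the RV of Sham-H were then 0 and 3 for the transcription factors, 0 and 5 for the load-response genes, 2 and 10 for the secreted signals, 0 and 1 for the sarcomere, 0 and 1 for calcium handling, 5 and 0 for ion channels, 3 and 1 for fatty acid genes and 0 and 8 for interferon-stimulated genes. The endothelial markers had 9 called lower.

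**Figure D4:**
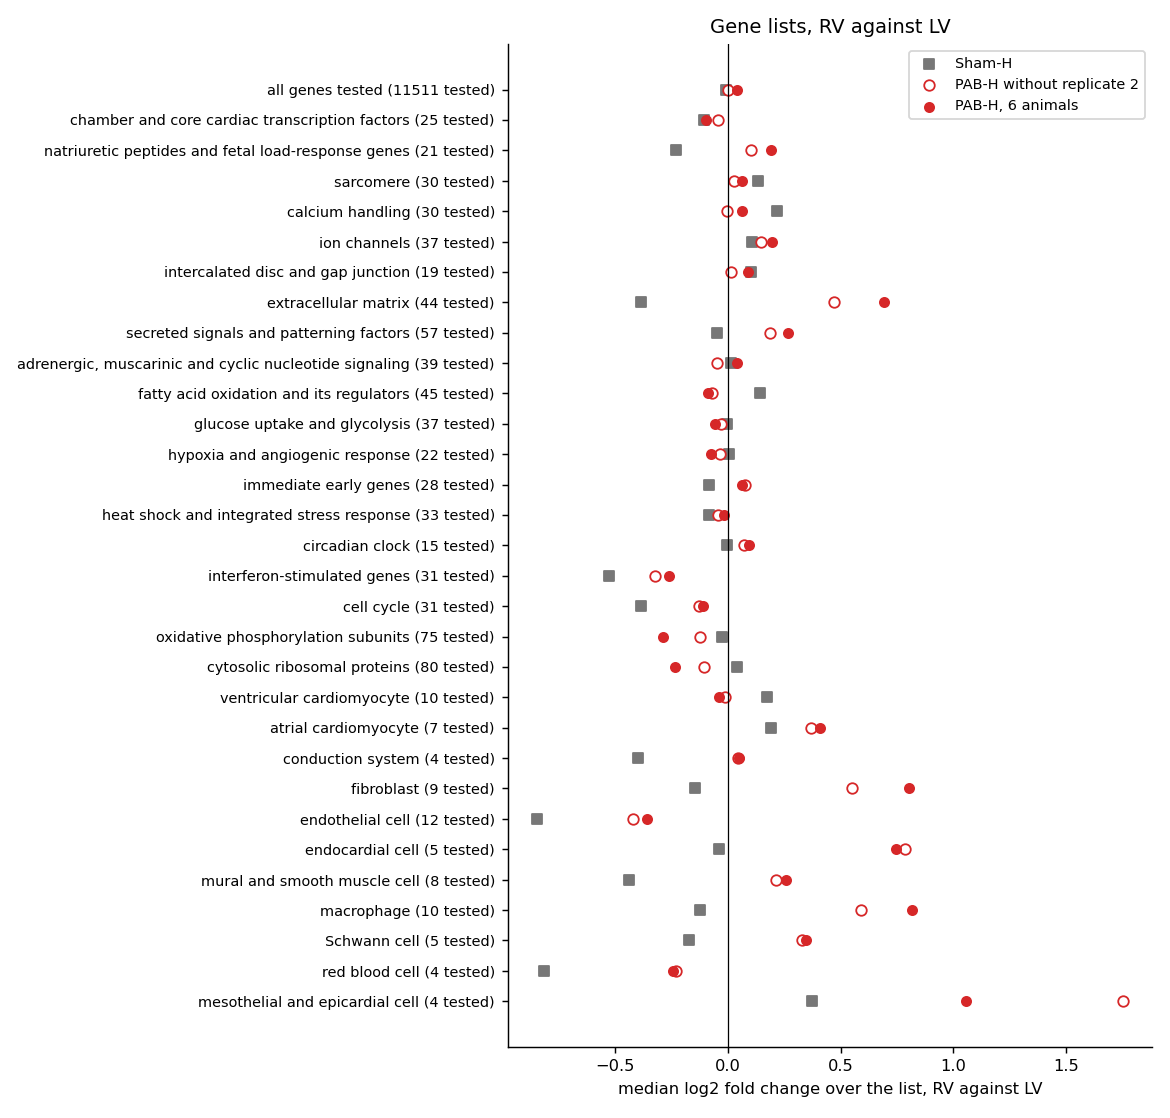
Median log2 fold change of RV against LV over each gene list in PAB-H with 6 animals (filled circles), in PAB-H without replicate 2 (open circles) and in Sham-H (squares), with the number of tested genes. The extracellular matrix list stands at 0.69, 0.47 and -0.39 in this order, and the endothelial list at -0.36, -0.42 and -0.85.

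The genes lower in the RV included genes of the capillary endothelium. Car4, a carbonic anhydrase on the surface of capillary endothelial cells, had RV counts from 46.6 to 200.5 (median 86.8) and LV counts from 145.5 to 421 (median 178.5). Only the RV of replicate 2 lay within the LV range, and the log2 fold change was -1.04 (SE 0.18, adjusted p = 0.00626), kept in each fit that left out 1 animal. Slc52a3, a riboflavin transporter, stood at -1.06 (SE 0.24, adjusted p = 0.0335) and at an adjusted p of 0.111 without replicate 2, and kept its call only without replicate 4. Gimap6, a GTPase of the immunity-associated family, stood at -1.01 (SE 0.23, adjusted p = 0.0326) and at 0.0323 without replicate 2, the 1 fit without an animal in which it was called. Vcam1, Icam1 and Selp, adhesion molecules that endothelial cells can also express, were called higher in the RV. A further group, Aplnr, Pcdh12, Nrp2, Plxnd1, Aqp1, Gpihbp1, Gimap1 and Gimap5, most of them known from endothelial cells, was picked from the lower genes after their values were seen. Their shared direction thus follows from the choice. Their log2 fold changes ran from -0.62 (Nrp2) to -0.99 (Aplnr). Aplnr, Pcdh12 and Nrp2 were called in all 6 fits without 1 animal, Gimap5 in 5, Aqp1, Gpihbp1 and Gimap1 in 1 each and Plxnd1 in 0. Without replicate 2 Aqp1, Gpihbp1, Gimap1 and Plxnd1 were not called, at adjusted p values from 0.0899 (Aqp1) to 0.1395 (Plxnd1).

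Of 12 endothelial markers 2 were called lower in PAB-H, Fabp4 and Cdh5, the cadherin of endothelial junctions (-0.61, SE 0.14, adjusted p = 0.0335). In Sham-H 10 were called lower, beside 15.1% of all genes tested. The median of the endothelial markers was -0.36 in PAB-H, -0.85 in Sham-H and -1.05 in AOB-H. The 5 tested endocardial markers had a median of 0.745 in PAB-H, with 4 positive, 0 called by edgeR and 1 called higher by DESeq2. The summed endothelial markers were lower in the RV in all 6 PAB-H animals, at 16540 to 36470 in the RV and 23830 to 42500 in the LV, beside 14260 to 18840 and 20690 to 48900 in Sham-H. The 2 lowest PAB-H RVs, of replicates 5 and 6, were the 2 females. The call of Cdh5 was kept without replicate 2 (adjusted p = 0.0114) and lost without any other single animal. Among the other cell type lists, Slc4a1, an anion exchanger of red blood cells, was lower in the RV (-0.46, SE 0.11, adjusted p = 0.041, and 0.133 without replicate 2). Isl1, Mpo and Hba1, markers of pacemaker cells, neutrophils and red blood cells, were at 0 in all 12 libraries. Other members of these lists had reads in all 12: Hcn4, Cntn2, Tbx3 and Gja5 of the conduction system, and Hbb, Hbb-b1, Alas2 and Slc4a1 of red blood cells.

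The called genes of PAB-H were set beside those of the other conditions, which share no library with it. In Sham-H 1902 genes were higher in the RV (16.5%) and 1734 lower (15.1%), and in AOB-H 572 were higher (4.97%) and 1172 lower (10.2%). Of the 73 genes lower in the RV of PAB-H, 71 were lower in Sham-H, 97.3% of the PAB-H list and 4.09% of the Sham-H list. Of the 96 higher, 41 were higher in Sham-H, 42.7% and 2.16% of the lists, and 4 were lower: Ltbp2, Gpnmb, Bcat1 and Cacna1g. With AOB-H, 65 lower genes were shared (89% and 5.55%), 35 higher genes were shared (36.5% and 6.12%), and 1 gene, Cish, was lower in PAB-H and higher in AOB-H. Of the 169 genes, 53 were not called in Sham-H (31.4%), which does not show that they differ. Without Sham-H replicates 4 and 5 the Sham-H counts fell to 183 higher and 565 lower, which held 32 of the 96 higher and 68 of the 73 lower genes of PAB-H, and 0 genes were called in opposite directions.

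The spread of the chamber difference over all genes was not tested between conditions. The SD of the log2 fold change over the 11511 genes was 0.351 in PAB-H, 0.487 in Sham-H and 0.448 in AOB-H, and 243, 584 and 620 genes differed more than 2-fold. Without Sham-H replicates 4 and 5 the SD of Sham-H was 0.375, with 297 genes over 2-fold. For the 73 genes lower in the RV of PAB-H the median was -0.68, and -1.27 in Sham-H, where 65 of them were changed more strongly. For the 96 higher genes the median was 1.1, and 0.466 in Sham-H. Without Sham-H replicates 4 and 5 these Sham-H medians were -1.02, with 60 of the 73 changed more strongly, and 0.47. These lists were chosen on the PAB-H values, so that the medians are a description.

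**Figure D5:**
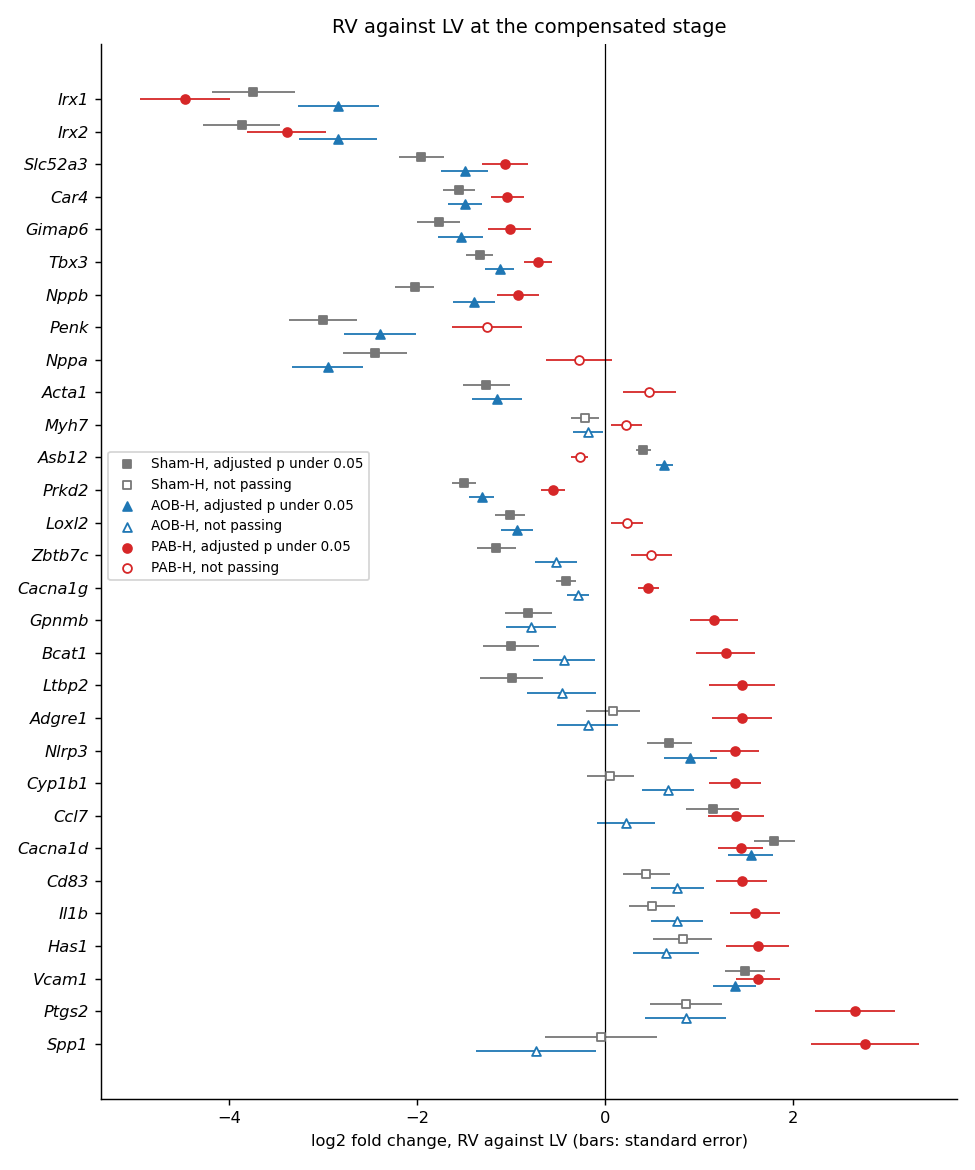
Log2 fold change of RV against LV with its standard error for 30 named genes in Sham-H (squares), AOB-H (triangles) and PAB-H (circles), filled where the adjusted p was under 0.05. Irx1 and Irx2 are low in the RV of all 3, Nppa is at -2.44, -2.95 and -0.28, and Gpnmb, Bcat1 and Ltbp2 are negative in Sham-H and AOB-H and positive in PAB-H.

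A direct test of the difference between the RV to LV contrasts of PAB-H and Sham-H called 7 genes (0.0608%), all at an adjusted p of 0.0492. In 6 the contrast was raised in PAB-H. Bcat1, the cytosolic branched-chain aminotransferase, had RV counts from 16.98 to 102 and LV counts from 3.66 to 25.5 in PAB-H, and 5.60 to 17.2 and 10.2 to 43.6 in Sham-H. It was higher in the RV in 5 of 6 PAB-H animals and lower in 7 of 7 Sham-H animals, and the difference was 2.28 (SE 0.43). Gpnmb, a transmembrane glycoprotein of macrophages and other cells, had RV counts from 102 to 260 and LV counts from 43.6 to 126.5 in PAB-H, and was higher in the RV in 5 of 6, with the exception of replicate 1. In Sham-H its RV counts were 21.3 to 96.9, lower than the LV in 7 of 7, and the difference was 1.98 (SE 0.36). Cacna1g was higher in the RV in 6 of 6 PAB-H animals and lower in 7 of 7 Sham-H animals, with RV counts from 280 to 506 in PAB-H and 188 to 307 in Sham-H, at a difference of 0.88 (SE 0.16).

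The other 3 with a raised contrast were Zbtb7c, a zinc finger protein (1.65, SE 0.31), Loxl2, an enzyme that cross-links collagen (1.24, SE 0.23), and Prkd2, protein kinase D2 (0.95, SE 0.18). They were lower in the RV of all 7 Sham-H animals. In PAB-H Prkd2 was still lower in all 6, at -0.55 (SE 0.13, adjusted p = 0.0359, lost without any 1 animal), while Zbtb7c at 0.49 (adjusted p = 0.25) and Loxl2 at 0.23 (adjusted p = 0.452) were not called. Asb12, a muscle protein of the ankyrin repeat and SOCS box family, ran the other way: it was higher in the RV in 7 of 7 Sham-H animals and lower in 5 of 6 PAB-H animals, at a difference of -0.68 (SE 0.12), and its contrast within PAB-H was -0.27 (adjusted p = 0.147).

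These 7 calls lie next to the threshold. At an unadjusted p under 0.05 there were 1700 genes. The count was 0 without PAB-H replicate 2, 3 or 4 and without Sham-H replicate 3, 4, 5 or 6, and 1 without Sham-H replicate 2. It was 21, 11 and 58 without PAB-H replicate 1, 5 and 6, and 130 and 44 without Sham-H replicate 1 and 7. Without Sham-H replicates 4 and 5 together it was 0, and the differences ranged from 0.71 (Prkd2) to 2.13 (Bcat1) in the 6 raised genes and were -0.63 in Asb12, each at an adjusted p of 0.287. DESeq2 with the same block called 314. PAB-H had 4 males of 6 and Sham-H 3 of 7, and sex was not a term of the difference.

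The same test against AOB-H, which uses the same PAB-H libraries, called 383 genes (3.33%), 272 with a raised and 111 with a lowered contrast in PAB-H. The largest were Spp1 at 3.499 (adjusted p = 0.0332), the chemokine receptor Ackr2 at 2.75 (adjusted p = 0.0255) and the G protein subunit Gna15 at 2.75 (adjusted p = 0.0469). Ackr2 was higher in the RV in 6 of 6 PAB-H animals and in 0 of 6 AOB-H animals, at low counts of 2.74 to 48.6 in PAB-H. On the other side stood the integrin subunit Itgad at -1.49 (adjusted p = 0.0265), the carbonyl reductase Cbr1 at -1.45 (adjusted p = 0.0317) and Atp6ap1l at -1.35 (adjusted p = 0.0306), each higher in the RV in 6 of 6 AOB-H animals. None of these 6 but Spp1 was called within PAB-H. The count was 106, 143 and 1 without PAB-H replicate 2, 3 and 4, and 90, 100, 225, 5 and 4 without AOB-H replicate 2, 3, 4, 5 and 6.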

How the data were processed

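RNA of cardiomyocytes from both ventricles was sequenced by the authors (41 animals, 82 libraries). Raw counts per gene (17337 genes) are deposited as the authors obtained them with Trim Galore, STAR on Rnor6.0 and featureCounts. The deposited normalized counts, a signal value made by the authors with DESeq2 1.28.1, and the deposited FPKM values, made by the authors per gene length and depth, entered no test. No per-sample column was left without a sample (0).

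The RV and LV of PAB-H, Sham-H and AOB-H (38 libraries, 19 animals, 6675287 to 19665439 counts) were fitted with edgeR 4.0.16 in R 4.3.3 (TMM, filterByExpr, quasi-likelihood test, Benjamini-Hochberg adjustment). The design held the animal as a block and 1 RV effect per condition, and 11511 genes were tested, 5826 being removed as low. Depth and 16 residual degrees of freedom limit what can be called: in simulated counts for RV against LV in PAB-H (11440 genes), changes of 0.5, 1 and 2 on the log2 scale were recovered in 32.8%, 78.8% and 97% of genes, with 12 of 11241 unchanged genes called. The simulation set all other ventricle effects to 0 and drew each gene on its own, with no heart that stood apart. Whether these shares hold for the real hearts was not tested. Per the labels, the RV and LV with the same number belong to the same rat. After subtraction of group means, the pair correlated at a median of 0.263 in PAB-H (-0.159 to 0.346), against -0.0889 between different animals. No library was a copy of another (smallest chi-square per gene 6.57 among the 12). A log2 RV minus LV value of 1 animal was taken with a pseudocount of 1.

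The genes named are up to 12 in each direction with the largest change among called genes over 2-fold, with a mean count over 50 and the same direction in all 6 animals, up to 8 in each direction for the difference from Sham-H, up to 3 called members and the most abundant member of each list, 15 fixed genes, up to 5 genes called in opposite directions in PAB-H and Sham-H, and 3 in each direction for the difference from AOB-H. Some genes that met these rules are not reported here. The members and lists were chosen with earlier results of these data known. Alternatives were no block, DESeq2 1.42.0, other size factors, no filter, all 82 libraries, a gene length correction, marker covariates and the 12 libraries alone. Others left out single animals, pairs of animals or the PAB-H females. The older groups (PAB-F, Sham-F, AOB-F) were used only in the fit over 82 libraries. FPKM-based comparisons between genes and genome coordinates of Rnor6.0 were not used here.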

Additional observations from a re-analysis of the deposited data

Results flagged for a closer look

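Among 105 sets of 6 values examined for a single outlying sample, 12 held one, where chance alone gives about 1 in 20. In the log2 RV minus LV values of the PAB-H animals, replicate 1 stood below the other 5 for Nrap (-0.947), Acta1 (-1.842), Myh7 (-0.991) and Penk (-3.605), and above them for Cfd (3.093). Replicate 2 stood above the others for Atp2a2 (0.934) and Lpl (1.071) and below them for Gapdh (-1.191), and replicate 3 stood above them for Cacna1g (1.223). In the LV of replicate 2 the summed ventricular cardiomyocyte markers were the lowest of the 6 (1064000), and the summed markers of mural and smooth muscle cells (8150) and of mesothelial and epicardial cells (1294) the highest.

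The RV to LV contrast differed between PAB-H and Sham-H for Bcat1 (2.282), Gpnmb (1.978), Zbtb7c (1.649), Loxl2 (1.24), Prkd2 (0.9494), Cacna1g (0.8791) and Asb12 (-0.6755), given as the log2 difference in PAB-H minus that in Sham-H. None was called without PAB-H replicate 2, 3 or 4. Between PAB-H and AOB-H, the 6 genes named for the largest differences were Spp1 (3.499), Ackr2 (2.751), Gna15 (2.751), Itgad (-1.492), Cbr1 (-1.451) and Atp6ap1l (-1.355). Both sets of differences rest on the same PAB-H libraries.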

How the results depend on the processing

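The count of genes called for RV against LV in PAB-H (169, of which 96 higher and 73 lower in the RV) varied with the fit. Without the replicate block, which pairs the ventricles of an animal, it was 24, and on the 12 PAB-H libraries alone 18 with the block and 7 without it. DESeq2 with the block called 418 (228 higher, 190 lower). By the study's fold, p and count criteria in place of the adjusted p, the study's DESeq2 setting without the block gave 3 (1 higher, 2 lower). At an adjusted p under 0.05 that setting called 51 of the 169 genes. The study's criteria on the edgeR fit gave 71 (65 higher, 6 lower). The fit without the 2 PAB-H females, which kept all Sham-H and AOB-H animals, gave 312 (235 higher, 77 lower). The fit without replicates 1 and 2 gave 52 (23 higher, 29 lower). The fit without Sham-H replicates 4 and 5 gave 352 (173 higher, 179 lower), and a covariate of 30 marker genes gave 282 (74 higher, 208 lower). A covariate of fibroblast and macrophage markers alone gave 135, with 21 higher and 114 lower. Leaving out 1 animal gave 43 to 147 (PAB-H), 132 to 264 (Sham-H) and 125 to 189 (AOB-H). The latter covariate and the fits without a Sham-H or AOB-H animal were chosen after seeing the data. So were the fits without PAB-H replicates 1 and 2 and without Sham-H replicates 4 and 5. DESeq2 size factors, no filter, a gene length correction and all 82 libraries gave counts of 149 to 181. The counts of Sham-H (3636) and AOB-H (1744) fell to 2076 and 896 without the block and to 1160 and 757 with the marker covariate, and that of Sham-H to 748 without its replicates 4 and 5. The count for PAB-H against Sham-H (7) was 0 without the block, with DESeq2 size factors, with the length correction, with the marker covariate and without Sham-H replicates 4 and 5, 1 with the fibroblast and macrophage covariate, 14 without a filter, 43 without replicates 1 and 2, 314 by DESeq2, 0 to 58 without 1 PAB-H animal and 0 to 130 without 1 Sham-H animal. For PAB-H against AOB-H (383) it was 0 without the block and with either covariate, 247 without a filter, 234 with the length correction, 108 without replicates 1 and 2, 879 by DESeq2, 1 to 571 without 1 PAB-H animal and 4 to 326 without 1 AOB-H animal. Of 1368 values of named genes under 18 settings, 45 changed sign, 261 lost their call and 14 gained one. None of the 15 genes that changed sign was called in PAB-H, also under the settings that changed the sign. With the fibroblast and macrophage covariate, the log2 fold changes were Loxl2 -0.25, Ccnd2 0.18, Gsn -0.52, Vwf -0.23, Cd4 -0.16, Nppa 0.27, Hand2 0.17, Itgad 0.26. With the marker covariate, they were Loxl2 -0.016, Ccnd2 0.064, Gsn -0.042, Vwf -0.12, Hand2 0.042, Itgad 0.11. Without replicates 1 and 2, they were Loxl2 -0.15, Lpl -0.085, Ccnd2 0.018, Gsn -0.16, Nppa 0.16, Hand2 0.072, Itgad 0.29. With the length correction, they were Myh6 -0.049, Nrap -0.053, Hcn4 -0.036, Vwf -0.046, Cspg4 -0.042, Hand2 0.042. Without the 2 PAB-H females, they were Nrap -0.033, Bhlhe40 0.024, Hcn4 -0.13, Itgad 0.047. Without the block Hcn4 was at -0.0404 in the 12 libraries and at -0.041 in all 38. Without 1 PAB-H animal they were Nrap -0.047 to 0.24, Vegfa -0.058 to 0.19, Lpl -0.10 to 0.14, Bhlhe40 -0.072 to 0.0105, Ccnd2 -0.19 to 0.11, Hcn4 -0.081 to 0.16, Vwf -0.10 to 0.22, Nppa -0.51 to 0.063, Itgad -0.20 to 0.22.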

Other observations

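Several genes outside the lists were called in all 6 fits that left out 1 PAB-H animal. Those named here were picked after their values were seen. Higher in the RV were Ephx4, an epoxide hydrolase family member (2.06, SE 0.26), Epha3, an ephrin receptor (1.37, SE 0.19), Gpr63, an orphan receptor (1.06, SE 0.16), Myof, a membrane repair protein (1.06, SE 0.15), Slc24a3, a sodium, potassium and calcium exchanger (0.94, SE 0.13), Meis2, a homeobox factor (0.65, SE 0.11), and Sort1, a sorting receptor (0.40, SE 0.06). Their log2 fold changes in Sham-H lay between 0.64 and 1.75, all called there. Corin, the protease that activates the A-type natriuretic peptide, was higher in the RV of all 6 PAB-H animals (0.63, SE 0.13, adjusted p = 0.017) and of Sham-H (0.97), and in PAB-H was called in 4 of the 6 fits, but not without replicate 2 (adjusted p = 0.0528).

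With the 2 PAB-H females left out and all Sham-H and AOB-H animals kept in the fit, 312 genes were called, 235 higher in the RV and 77 lower. The 2 females were not fitted alone. The mesothelial and epicardial list had a median of 1.06 over 4 tested genes in PAB-H and of 1.36 in AOB-H, with 0 called in PAB-H by edgeR and DESeq2 and 0 at an unadjusted p under 0.05. Without replicate 2 its median was 1.75, with 1 gene called higher in the RV.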
